A study of Bos taurus with 16 samples.

Results

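INSR, IRS1, MTOR, EIF4EBP1 and PRKAA1 are 5 of the 27607 genes in a table of RNA-seq counts from liver and semitendinosus muscle, sampled in 8 calves. They encode the insulin receptor, the insulin receptor substrate 1, the kinase mTOR, the translational repressor 4EBP1 and a catalytic subunit of the AMP-activated protein kinase (AMPK). The genes were picked by name, and their rows were found by the Ensembl IDs ENSBTAG00000012687 (INSR), ENSBTAG00000021308 (IRS1), ENSBTAG00000015325 (MTOR), ENSBTAG00000027654 (EIF4EBP1) and ENSBTAG00000000013 (PRKAA1). All 5 passed the filter on low counts in both organs, with 137 to 5767 counts in a library. From the same libraries the study had already reported opposite differences in liver and muscle for IRS1, MTOR and EIF4EBP1. It had also reported less INSR in IVP liver. A direction seen here is therefore not independent evidence of that direction.

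The calves were Holstein males. In 4 of them the embryo had been produced in vitro (IVP), from oocytes taken from mildly stimulated donor cows and then fertilised and cultured without serum. In the other 4 it had been flushed from a superovulated donor cow and transferred (MOET). Samples of the right lobe of the liver and of the semitendinosus muscle were taken at 98 to 103 days of age in IVP calves and at 102, 102, 104 and 144 days in MOET calves. The IVP calves came from 1 donor cow and 2 sires, and the MOET calves from 2 donor cows and 3 sires. IVP calves 3208 and 3209 and MOET calves 3217 and 3218 had the same dam and the same sire, which makes these 4 full siblings. For the other calves embryo origin and parents cannot be told apart.

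Each of the 16 libraries held 22758137 to 25626474 deposited counts. Values are given as CPM, counts in 1000000 of the library after TMM scaling within the organ. Summed levels of cell type markers are CPM without TMM scaling. Each gene is compared only with itself between calves or organs, because the values are not corrected for transcript length. The oldest calf, MOET calf 3213, had deposited counts close to the average of the other MOET calves. Its counts for the 5 genes were 89.3% to 102.7% of the mean of these 3 calves. Over genes with ample counts (8390 in liver, 6234 in muscle), its median absolute log2 deviation from that mean was 0.0225 in liver and 0.0139 in muscle. The other calves, each set against the rest of its group without calf 3213, had 0.0979 to 0.368 and 0.120 to 0.191. The other MOET calves were thus set against fewer calves than calf 3213 was. The values of calf 3213 are shown, but means, SDs and statements on overlap cover 4 IVP and 3 MOET calves. The tests used all 8 calves with age in days as covariate, so the age term is fitted almost wholly from calf 3213. The authors had already adjusted the deposited counts for age, so age is fitted a second time here. Fits without the age term that keep calf 3213 count it as a full replicate, although its counts were close to that mean. The named markers of hepatocytes (APOA1 and TTR) summed to at least 4477 CPM in liver and at most 34.4 CPM in muscle. Those of myofibres (ACTA1, MYH2 and MYH7) summed to at least 103507 CPM in muscle and at most 0.365 CPM in liver, so both organs carried the markers of their label. In pieces of whole tissue, fewer cells of a type and less RNA per cell cannot be told apart. The libraries were not stranded, so a gene that overlaps another or has a near-identical copy can share reads with it.

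Insulin binds its receptor, a tyrosine kinase on the cell surface, and the receptor phosphorylates substrates such as IRS1, which recruit phosphatidylinositol 3-kinase and lead to activation of the kinase AKT. AKT relieves the inhibition of mTOR complex 1 by the TSC proteins, and mTOR then phosphorylates 4EBP1, which otherwise holds the cap-binding factor eIF4E and represses translation. AMPK senses low cellular energy and restrains mTOR complex 1 through TSC2 and Raptor. Liver and skeletal muscle are both main targets of insulin, the liver for glucose output and lipid synthesis and the muscle for glucose uptake and protein synthesis. Much of this signalling runs through phosphorylation, which mRNA counts do not measure.

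The first question was whether the 5 mRNAs differed between IVP and MOET calves in liver. INSR, IRS1, MTOR and PRKAA1 had lower means in IVP liver and EIF4EBP1 a higher one, with log2 fold changes from -1.04 to 0.98. None of the 5 passed an FDR of 0.05 in edgeR's quasi-likelihood test with age as covariate, a threshold that 0.0350% of the 14290 genes tested passed. All 5 had an unadjusted p under 0.05, as had 29.8% of all genes. Without age as covariate, DESeq2 gave all 5 an FDR under 0.05 (0.00123 to 0.0118), and it called 32.6% of all genes there. In edgeR with calf 3213 left out, 4 of the 5 passed with the age term, as did 15.2% of all genes, and 0 passed without it, as did 0.0347%. The ages then run from 98 to 104 days, so that age term rests largely on IVP calf 5841, aged 98 days. Without calf 3213 and without the age term, the log2 fold changes were -0.75 (INSR), -1.06 (IRS1), -0.83 (MTOR), 1.02 (EIF4EBP1) and -0.36 (PRKAA1).

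INSR, the receptor, had 20.3, 14.4, 14.2 and 13.3 CPM in the liver of IVP calves 3208, 3209, 5833 and 5841. MOET calves 3217, 3218 and 5932 had 30.7, 18.9 and 28.7 CPM, and calf 3213 had 25.9. The groups overlapped, because IVP calf 3208 lay above MOET calf 3218, its full sibling, while the other 3 IVP calves lay below every MOET calf. IVP liver had a mean of 15.6 ± 3.19 CPM (SD, n = 4), against 26.1 ± 6.31 CPM (SD, n = 3) with MOET. The log2 fold change was -0.74 (95% interval -1.21 to -0.26, FDR 0.125 from edgeR), and 9.02% of all liver genes had a lower one.

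IRS1, the docking protein that the receptor phosphorylates, had 32.9, 28.9, 21.0 and 13.5 CPM in the liver of IVP calves 3208, 3209, 5833 and 5841. In MOET calves 3217, 3218 and 5932 it had 52.9, 47.3 and 50.8 CPM, and in calf 3213 it had 45.6. The groups did not overlap, and the IVP calves were spread far more widely than the MOET calves. The means of 24.1 ± 8.64 CPM (SD, n = 4) and 50.3 ± 2.81 CPM (SD, n = 3) gave a log2 fold change of -1.04 (95% interval -1.63 to -0.44, FDR 0.125 from edgeR). Of all liver genes, 3.74% had a lower one.

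MTOR, the kinase that couples insulin and amino acids to growth, had 25.2, 19.5, 21.0 and 10.5 CPM in the same order of IVP calves, and 38.9, 26.4 and 36.4 CPM in MOET calves 3217, 3218 and 5932, with 31.5 in calf 3213. Every IVP calf lay below every MOET calf, but the highest IVP calf (3208) and the lowest MOET calf (3218), again full siblings, were close to each other. The means were 19.1 ± 6.19 CPM (SD, n = 4) and 33.9 ± 6.63 CPM (SD, n = 3). The log2 fold change was -0.80 (95% interval -1.41 to -0.19, FDR 0.127 from edgeR).

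EIF4EBP1, which encodes the repressor that mTOR inactivates, went the other way. Its liver levels were 60.0, 67.7, 68.5 and 134.7 CPM in IVP calves 3208, 3209, 5833 and 5841 and 37.0, 45.5 and 39.8 CPM in MOET calves 3217, 3218 and 5932, with 39.6 in calf 3213. The groups did not overlap, and calf 5841 stood far above the other IVP calves. The means of 82.7 ± 34.9 CPM (SD, n = 4) and 40.8 ± 4.36 CPM (SD, n = 3) gave a log2 fold change of 0.98 (95% interval 0.34 to 1.62, FDR 0.125 from edgeR), and 97.6% of all liver genes had a lower one. Without calf 5841 it was 0.68.

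PRKAA1, the catalytic alpha subunit of AMPK, differed least. It had 18.4, 15.9, 15.5 and 15.9 CPM in IVP calves 3208, 3209, 5833 and 5841 and 23.1, 20.8 and 19.2 CPM in MOET calves 3217, 3218 and 5932, with 21.2 in calf 3213. The groups did not overlap, although IVP calf 3208 was just below MOET calf 5932. The log2 fold change was -0.35 (95% interval -0.64 to -0.07, FDR 0.129 from edgeR), between means of 16.4 ± 1.31 CPM (SD, n = 4) and 21.0 ± 1.94 CPM (SD, n = 3).

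Thus 4 of the 5 genes showed no overlap between the groups in liver, as did 33.1% of all liver genes. IVP calf 5841 had the lowest IVP level of INSR, IRS1 and MTOR and the highest of EIF4EBP1, and calf 3208 had the highest IVP level of INSR, IRS1, MTOR and PRKAA1 and the lowest of EIF4EBP1. Within the IVP group the calves of the sire shared with the MOET calves (3208 and 3209) had more INSR and IRS1 and less EIF4EBP1 in liver than both calves of the other sire (5833 and 5841). The means were 17.4 against 13.7 CPM for INSR, 30.9 against 17.2 CPM for IRS1 and 63.8 against 101.6 CPM for EIF4EBP1, with 2 calves each, so calf and sire cannot be told apart. The nearest calves of the 2 sires were close for INSR (14.4 and 14.2 CPM) and EIF4EBP1 (67.7 and 68.5 CPM). MTOR and PRKAA1 overlapped between the sires. The share of all genes parted by sire in this way was not computed, so these genes are not set apart by it. Among the full siblings alone, 2 IVP against 2 MOET calves, the log2 fold changes of INSR (-0.52), IRS1 (-0.70), MTOR (-0.55), EIF4EBP1 (0.63) and PRKAA1 (-0.35) kept their sign.

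**Figure D1:**
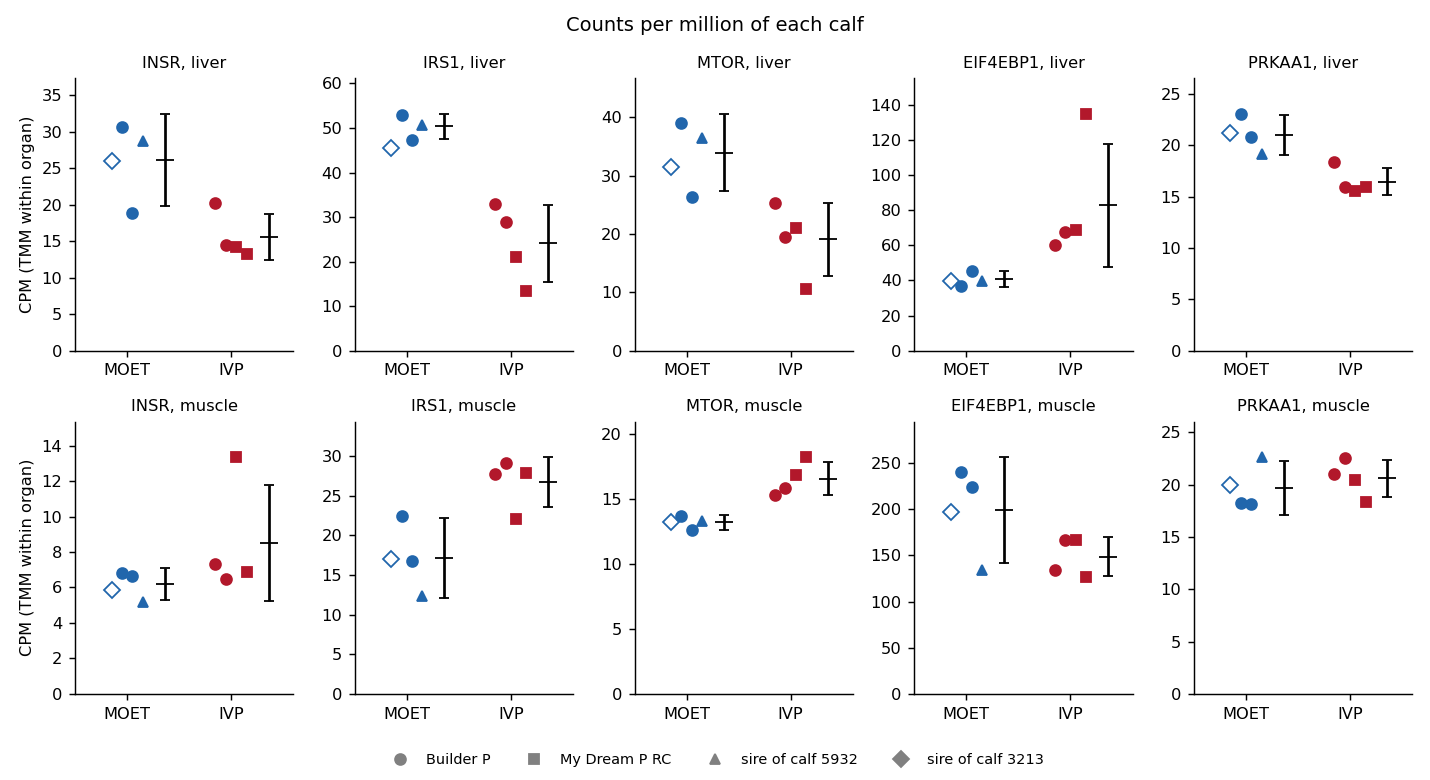
CPM of each gene (vertical axis, counts in 1000000 after TMM scaling within the organ) in each IVP and MOET calf, with liver and muscle in separate panels, marker shape for the sire, an open diamond for MOET calf 3213, and a bar with the mean ± SD of 4 IVP and 3 MOET calves. In liver IRS1, MTOR and PRKAA1 lie lower in every IVP calf than in these MOET calves and EIF4EBP1 lies higher, while in muscle only MTOR parts the groups.

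Summed levels of the named markers of fibroblast and stellate cells, endothelium and hepatocytes also differed between the groups in liver. Markers could be named only from tables of genes that the study selected. A difference in these sums therefore describes the named markers and not the cell type. The summed level of 4 of 5 listed fibroblast and stellate cell markers was 475 to 662 CPM in IVP and 808 to 947 CPM in MOET liver. The summed level of 2 of 5 listed endothelial markers was 66.6 to 95.3 CPM in IVP and 99.0 to 133.0 CPM in MOET liver. Taken singly, after TMM scaling, CDH5 and VWF each overlapped between the groups. The 2 named hepatocyte markers of 5 listed summed to 6101 to 7813 CPM in IVP and 4477 to 4813 CPM in MOET liver. The part of these shifts in the differences of the 5 genes was not tested.

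The same question was asked in muscle, where the order of the groups was turned for each gene. INSR, IRS1, MTOR and PRKAA1 had higher means in IVP muscle and EIF4EBP1 a lower one. With age as covariate none of the 5 passed an FDR of 0.05 in edgeR, as 0.467% of the 12854 genes tested did. IRS1 and MTOR had an unadjusted p under 0.05, which 19.8% of all genes had. DESeq2 without age gave IRS1 an FDR of 0.00602 and MTOR one of 0.0232, and it called 12.6% of all genes. That fit counts calf 3213 as a full replicate. In edgeR with calf 3213 left out, 0 of the 5 passed with the age term, as did 0.321% of all genes. Without the age term 0 passed too, as did 0.634%. Of the 5 genes only MTOR showed no overlap between 4 IVP and 3 MOET calves, as did 19.0% of all muscle genes.

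INSR had 7.32, 6.48, 13.3 and 6.89 CPM in the muscle of IVP calves 3208, 3209, 5833 and 5841, and 6.83, 6.63 and 5.16 CPM in that of MOET calves 3217, 3218 and 5932, with 5.84 in calf 3213. Apart from IVP calf 5833, which had the most, the groups were intermingled. The means were 8.51 ± 3.25 CPM (SD, n = 4) and 6.21 ± 0.91 CPM (SD, n = 3). The log2 fold change of 0.47 (95% interval -0.08 to 1.01, FDR 0.320 from edgeR) rested on calf 5833 and was 0.15 without it.

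IRS1 had 27.8, 29.1, 22.0 and 27.9 CPM in the same order of IVP calves, and 22.4, 16.7 and 12.4 CPM in MOET calves 3217, 3218 and 5932, with 17.0 in calf 3213. The highest MOET calf (3217) was just above the lowest IVP calf (5833), and the other calves were parted by group. The means of 26.7 ± 3.17 CPM (SD, n = 4) and 17.1 ± 5.01 CPM (SD, n = 3) gave a log2 fold change of 0.63 (95% interval 0.23 to 1.03, FDR 0.114 from edgeR). Of all muscle genes, 94.6% had a lower one.

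MTOR had 15.3, 15.8, 16.8 and 18.2 CPM in the muscle of IVP calves 3208, 3209, 5833 and 5841, and 13.7, 12.6 and 13.3 CPM in that of MOET calves 3217, 3218 and 5932, with 13.2 in calf 3213. Every IVP calf lay above every MOET calf, and the spread within each group was small. The log2 fold change was 0.32 (95% interval 0.09 to 0.55, FDR 0.144 from edgeR), between means of 16.5 ± 1.28 CPM (SD, n = 4) and 13.2 ± 0.57 CPM (SD, n = 3).

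EIF4EBP1 had 134.3, 167.1, 166.2 and 126.7 CPM in the muscle of the IVP calves in that order, and 240.2, 223.7 and 133.8 CPM in MOET calves 3217, 3218 and 5932, with 196.6 in calf 3213. The groups overlapped, because MOET calf 5932 lay among the IVP calves, while the other MOET calves lay above all of them. The means of 148.6 ± 21.1 CPM (SD, n = 4) and 199.2 ± 57.3 CPM (SD, n = 3) gave a log2 fold change of -0.42 (95% interval -0.85 to 0.00, FDR 0.256 from edgeR). It was -0.63 without calf 5932 and -0.26 without calf 3217.

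PRKAA1 had 21.1, 22.5, 20.4 and 18.3 CPM in the muscle of the IVP calves and 18.2, 18.1 and 22.6 CPM in that of MOET calves 3217, 3218 and 5932, with 20.0 in calf 3213. The groups were intermingled, with the highest of the 7 values in MOET calf 5932. The means were 20.6 ± 1.75 CPM (SD, n = 4) and 19.7 ± 2.57 CPM (SD, n = 3), and the log2 fold change was 0.08 with a 95% interval of -0.18 to 0.33 (FDR 0.750 from edgeR).

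Among the full siblings, 2 calves against 2, the muscle log2 fold changes were 0.04 (INSR), 0.54 (IRS1), 0.24 (MTOR), -0.62 (EIF4EBP1) and 0.26 (PRKAA1). These 4 calves were parted by group without overlap for IRS1, MTOR, EIF4EBP1 and PRKAA1 and not for INSR. The share of all genes parted in this way, with 2 calves against 2, was not computed, so the count does not set these genes apart. In muscle the 2 named hepatocyte markers summed to 3.42 to 34.4 CPM in IVP and 1.04 to 2.35 CPM in MOET calves, against at least 4477 CPM in liver. Fibroblast markers (4 of 5 named) summed to 771 to 1079 CPM in IVP and 1227 to 1739 CPM in MOET muscle, and endothelial markers (2 of 5) to 79.7 to 150.9 and 71.4 to 76.9 CPM. The 3 named of 6 listed myofibre markers summed to 103507 to 116314 CPM in IVP and 111005 to 118921 CPM in MOET muscle. Taken singly, after TMM scaling, MYH7, the slow myosin heavy chain, had 5682, 4998, 14722 and 9139 CPM in IVP calves 3208, 3209, 5833 and 5841. It had 3884, 2442 and 1862 CPM in MOET calves 3217, 3218 and 5932. MYH2, a fast myosin heavy chain, was also higher in every IVP calf, at 11753 to 16658 CPM against 6865 to 8389 CPM in these MOET calves. ACTA1, skeletal actin, had a lower mean in IVP muscle, 86037 ± 16991 CPM (SD, n = 4) against 106039 ± 8238 CPM (SD, n = 3), and the groups overlapped. IVP calf 5833, with the most MYH7, was also the calf with the most INSR in muscle. These markers too could be named only from tables of genes that the study selected, so the values describe the named markers only. The part of fibre type and of other cells in the muscle differences was not tested.

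A fit of both organs together, over 16 libraries, asked whether the IVP minus MOET difference itself differed between them. INSR, IRS1 and MTOR had a more positive difference in muscle than in liver and EIF4EBP1 a more negative one, and 4 of the 5 genes passed an FDR of 0.05 in edgeR, as did 8.99% of the 15237 genes tested. The difference of differences was 1.16 for INSR (95% interval 0.42 to 1.91, FDR 0.04997, just under the threshold) and 1.63 for IRS1 (95% interval 0.88 to 2.39, FDR 0.0296) on the log2 scale. MTOR had 1.09 (95% interval 0.44 to 1.74, FDR 0.0430) and EIF4EBP1 -1.43 (95% interval -2.23 to -0.64, FDR 0.0379). PRKAA1 did not pass, at 0.40 (95% interval 0.03 to 0.77, FDR 0.132). This test uses the libraries of the liver and muscle tests again and adds no data to them. The 5 genes were chosen with these values known, so their count beside 8.99% does not set them apart.

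The calls of this test changed with the calves and the model. Both organs came from the same calves, and with the calf as replicate block 1 of the 5 genes, IRS1, passed, as did 4.68% of all genes. INSR (1.10), MTOR (1.12) and EIF4EBP1 (-1.32) then did not. None of the 5 passed when IVP calf 3209 or 5833 or MOET calf 3217, 3218 or 5932 was left out, where at most 0.501% of all genes passed, or among the full siblings alone, where 0.0261% did. The differences themselves stayed at 0.81 to 1.42 (INSR), 1.42 to 1.82 (IRS1), 0.88 to 1.29 (MTOR) and -1.62 to -1.07 (EIF4EBP1) when any of the 8 calves was left out. The sign of each of the 5 differences was kept in all 17 alternatives.

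**Figure D2:**
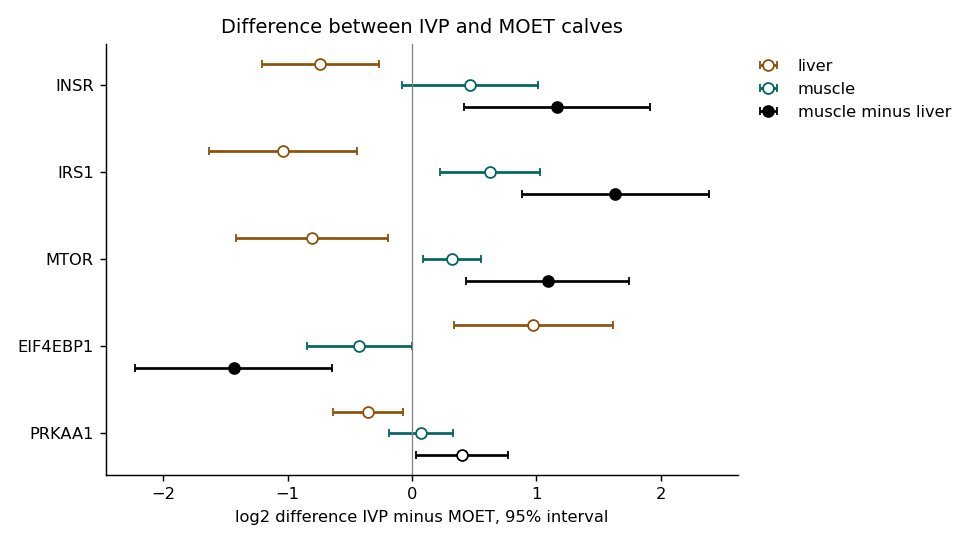
IVP minus MOET difference of each gene on the log2 scale (horizontal axis) in liver, in muscle and as muscle minus liver, with 95% intervals from edgeR, filled where the FDR is under 0.05. The liver and muscle estimates lie on opposite sides of 0 for all 5 genes, and the filled points are the muscle minus liver differences of INSR, IRS1, MTOR and EIF4EBP1.

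All 5 genes had opposite signs in liver and muscle, which 62.9% of the 12007 genes tested in both organs had as well. The 5 genes are too few, and were chosen with these values known, for that share to set them apart.

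The genes were next compared between the organs regardless of embryo origin. On a common scale over all libraries, EIF4EBP1 had 51.3 ± 26.6 CPM (SD, n = 7) in liver and 215.7 ± 59.7 CPM (SD, n = 7) in muscle. All 7 calves had more in muscle, and the log2 difference between muscle and liver was 2.23 (standard error 0.186, FDR 1.13e-08 from edgeR). PRKAA1 was also higher in muscle in all 7 calves, with 14.5 ± 2.21 and 25.5 ± 2.48 CPM (SD, n = 7) and a log2 difference of 0.79 (FDR 2.43e-07). INSR was lower in muscle, with 15.9 ± 5.53 CPM in liver and 9.48 ± 3.22 CPM in muscle (SD, n = 7), a log2 difference of -0.79 (FDR 0.000447). IVP calf 5833 was the 1 calf of the 7 with more INSR in muscle, 16.5 against 11.3 CPM. Of the 5 genes 3 passed, as did 83.0% of all genes.

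IRS1 and MTOR did not differ between the organs beyond their spread. IRS1 had 27.9 ± 12.1 CPM in liver and 28.5 ± 7.89 CPM in muscle (SD, n = 7), a log2 difference of -0.01 with a 95% interval of -0.37 to 0.36. MTOR had 20.1 ± 7.69 and 19.1 ± 2.36 CPM (SD, n = 7), a log2 difference of -0.09 with a 95% interval of -0.41 to 0.23. The MTOR difference was -0.25 and passed without calf 3213, and likewise without calf 5841. These averages hide opposite orders of the group means. On the common scale IRS1 had 39.6 ± 2.19 CPM in liver and 21.9 ± 6.50 CPM in muscle of MOET calves (SD, n = 3), but 19.1 ± 6.85 and 33.5 ± 4.33 CPM in IVP calves (SD, n = 4). MTOR had 26.7 ± 5.19 and 16.8 ± 0.63 CPM in MOET calves (SD, n = 3) and 15.1 ± 4.91 and 20.8 ± 1.40 CPM in IVP calves (SD, n = 4). Of the 7 calves 4 had more IRS1 in muscle and 3 had more MTOR there. IVP calf 3208 had slightly more MTOR in liver, 20.0 against 19.4 CPM. The order of the organs for MTOR depends on the scaling over both organs, since IVP calf 5833 had 462 MTOR counts in each.

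The relation of the genes to each other within a library was described by the log2 ratio of their counts, which does not depend on library size. Transcript length does not change the difference of such a ratio between calves. The ratio of EIF4EBP1, the repressor, to MTOR, its kinase, was 1.25, 1.79, 1.71 and 3.68 in the liver of IVP calves 3208, 3209, 5833 and 5841. It was -0.07, 0.79 and 0.13 in that of MOET calves 3217, 3218 and 5932. Every IVP calf lay above every MOET calf, with means of 2.11 ± 1.07 (SD, n = 4) and 0.28 ± 0.45 (SD, n = 3). Each gene alone already parted these calves in liver, in opposite directions, so the ratio had to part them too. It adds no evidence to the values of the single genes.

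In muscle the same ratio was 3.14, 3.40, 3.31 and 2.80 across the IVP calves, and the MOET calves had 4.13, 4.15 and 3.33, in the same order. The means were 3.16 ± 0.26 (SD, n = 4) and 3.87 ± 0.47 (SD, n = 3). MOET calves 3217 and 3218 lay above all IVP calves and calf 5932 lay among them. The ratio was higher in muscle than in liver in each calf except IVP calf 5841, where it was lower.

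**Figure D3:**
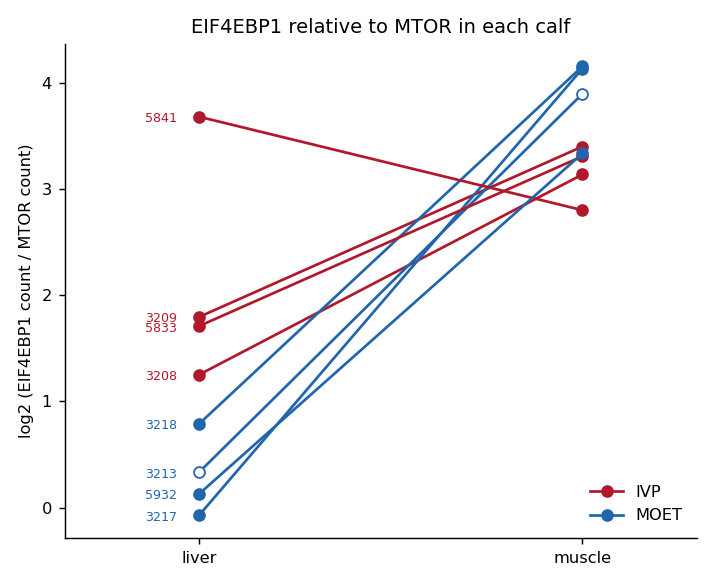
Log2 ratio of EIF4EBP1 to MTOR counts (vertical axis) in liver and muscle of each calf, with a line joining both organs of a calf and open points for calf 3213. In liver the IVP calves lie at 1.25 to 3.68 and MOET calves 3217, 3218 and 5932 at -0.07 to 0.79, while in muscle the ranges of 2.80 to 3.40 and 3.33 to 4.15 overlap.

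The ratio of IRS1 to INSR overlapped between the groups in both organs. Mean ratios in liver were 0.57 ± 0.41 (SD, n = 4) for IVP calves against 0.98 ± 0.30 (SD, n = 3) for MOET calves, and in muscle they were 1.71 ± 0.66 and 1.43 ± 0.24. IVP calf 5841 had the lowest value in liver, 0.02, and IVP calf 5833 the lowest in muscle, 0.72. The ratio of PRKAA1 to MTOR overlapped as well, with means of -0.15 in IVP and -0.67 in MOET liver and of 0.32 and 0.57 in muscle.

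Other genes of the pathway were taken from lists of the insulin, PI3K, AKT, TSC, mTOR, translation initiation and AMPK genes. Of 108 listed genes besides the 5, 36 could be named and 35 were tested. INSRR, the insulin receptor-related receptor, had too few counts. The names come from tables of genes that the study selected, so these counts describe the named genes only. In liver 13 were higher and 22 lower in IVP calves, where 49.7% of all genes were higher, with 0 passing an FDR of 0.05 in edgeR. An unadjusted p under 0.05 was reached by 6 higher and 14 lower, as by 14.8% and 15.0% of all genes. The median log2 fold change of the 35 genes was -0.28 against -0.00 over all genes. In muscle 24 were higher and 11 lower, where 52.3% of all genes were higher, with a median of 0.18 against 0.02 over all genes. There 10 higher and 5 lower reached an unadjusted p under 0.05, as did 11.4% and 8.43% of all genes. A single gene, a lower one, passed an FDR of 0.05, as did 0.187% of all genes in that direction. In 29 of the 35 genes the signs in liver and muscle were opposite, 20 of them lower in liver and higher in muscle.

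Upstream of AKT the named genes went the way of INSR and IRS1. All 7 tested genes of the receptor and substrate list had negative log2 fold changes in liver, among them IGF1R, the receptor of insulin-like growth factor 1 (-0.67, FDR 0.156 from edgeR), and the adaptor GRB2, nearest to 0 (-0.09). IGF1R was at -0.05 in muscle, so it did not mirror INSR there. SOS1, the exchange factor that activates RAS, was at -0.76 in liver and 0.45 in muscle (FDR 0.130 and 0.0926). All 4 named genes of the PI3K and AKT list were negative in liver and positive in muscle.

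The TSC, RHEB and mTOR complex genes were mixed, with 8 of 12 higher and 4 lower in IVP liver and 6 each in muscle. Those nearest to MTOR in role did not move as a unit. RPTOR, the Raptor subunit of mTOR complex 1, was at -0.49 in liver and 0.27 in muscle (FDR 0.159 and 0.293), and TSC1, a brake on the complex, at -0.51 and 0.15 (FDR 0.127 and 0.515). RHEB, the small GTPase that activates mTOR complex 1, went in the opposite sense, at 0.12 and -0.20 (FDR 0.475 and 0.309). DEPTOR, an mTOR inhibitor, was at -1.20 in liver and 0.03 in muscle (FDR 0.125 and 0.955). SESN3, a sestrin that restrains mTOR complex 1, was at -1.19 and 0.42 (FDR 0.125 and 0.633). Its muscle value rests on only 4 to 15 counts in a library.

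PRR5, a subunit of mTOR complex 2, was the listed gene that passed in muscle, where it fell by 0.98 on the log2 scale (FDR 0.0342 from edgeR). In liver its log2 fold change was 0.95 (FDR 0.127). Leaving out a calf in turn, it passed in 1 of 8 fits in muscle.

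The translation and AMPK lists were mixed too. Of the 5 named genes of the translation list 2 were higher and 3 lower in liver, and 3 were higher and 2 lower in muscle. Of the 7 named AMPK genes 3 were higher and 4 lower in liver, and 6 were higher and 1 lower in muscle. PRKAA2, the other catalytic subunit, was at -0.58 in liver and 0.24 in muscle (FDR 0.145 and 0.544), and the muscle value was 0.05 without calf 3208. Of the beta subunits PRKAB2 was at -1.19 and 0.31 (FDR 0.125 and 0.323) and PRKAB1 at 0.10 and 0.27 (FDR 0.525 and 0.173). None of these subunits passed the threshold in either organ.

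In the test of muscle minus liver 8 of the 35 genes passed with a more positive difference in muscle and 3 with a more negative one, as did 4.74% and 4.25% of all genes. The median over the 35 was 0.49 against 0.03 over all genes. Among the genes named here these were PRKAB2 (1.47), DEPTOR (1.20), SOS1 (1.18) and EIF4G1 (0.59) on the positive side and PRR5 (-1.96) on the negative side, with FDRs of 0.0250 to 0.0493 from edgeR. With the calf as replicate block 5 and 1 passed, where 4.68% of all genes did, and among the full siblings 0, where 0.0261% did.

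**Figure D4:**
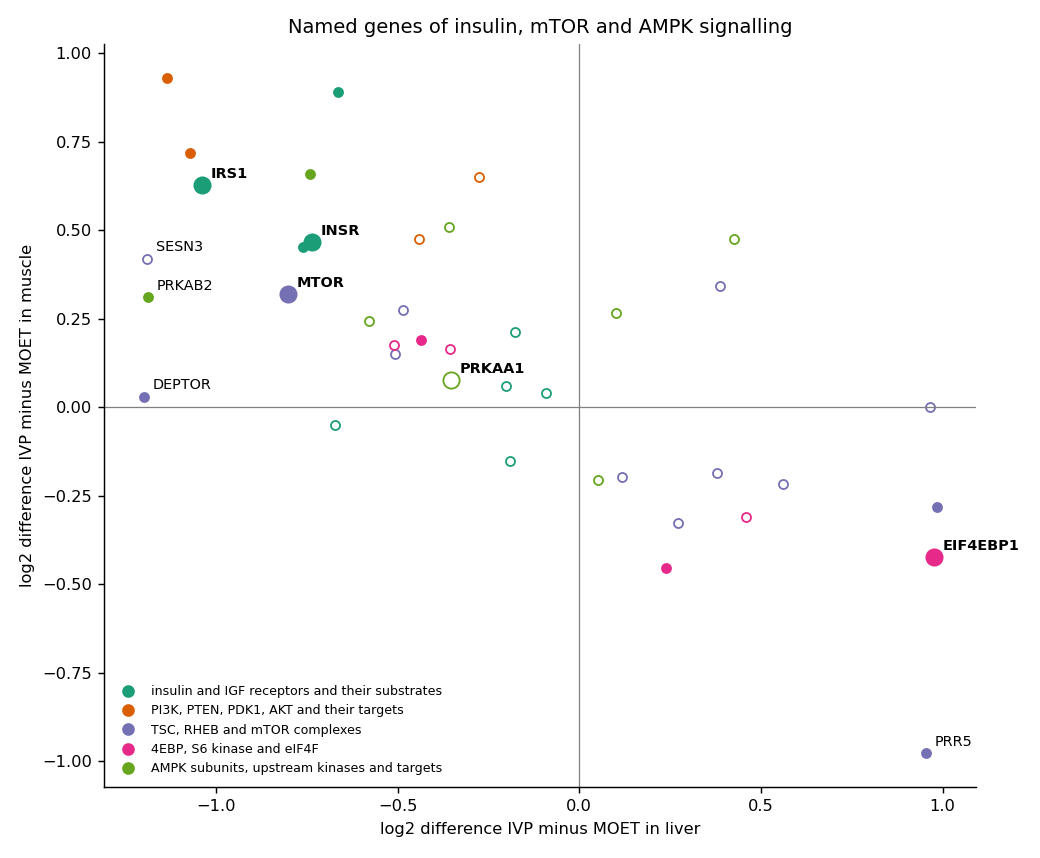
IVP minus MOET log2 difference in liver (horizontal axis) and in muscle (vertical axis) for the 5 genes (large points) and the 35 other tested pathway genes, coloured by list and filled where muscle minus liver has an FDR under 0.05. INSR, IRS1, MTOR and PRKAA1 lie left of 0 and above it with 20 of the other genes, and EIF4EBP1 lies right of 0 and below it with 9.

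To describe which genes varied like each of the 5, log2 CPM was centred on the mean of each organ and correlated over the 14 libraries without calf 3213, among 2235 named genes. These values share the group difference and the calf, and no test was made. Closest to INSR were DCHS1 (r = 0.895), CD47 (0.892) and LOXL2 (0.891), and closest to IRS1 were EIF4G1 (0.956), RB1CC1 (0.955) and TMEM30A (0.951). EIF4G1 encodes the scaffold of the eIF4F cap-binding complex. MTOR varied most like GIT2 (0.985), USP24 (0.985) and DDX3X (0.983). EIF4EBP1 varied most like NUPR1 (0.972), REX1BD (0.962) and TNIP1 (0.960), where NUPR1 is a stress-induced chromatin protein. For PRKAA1 the closest genes were looser fits, DNTTIP2 (0.856), RAB33B (0.849) and COL5A2 (0.821).

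**Figure D5:**
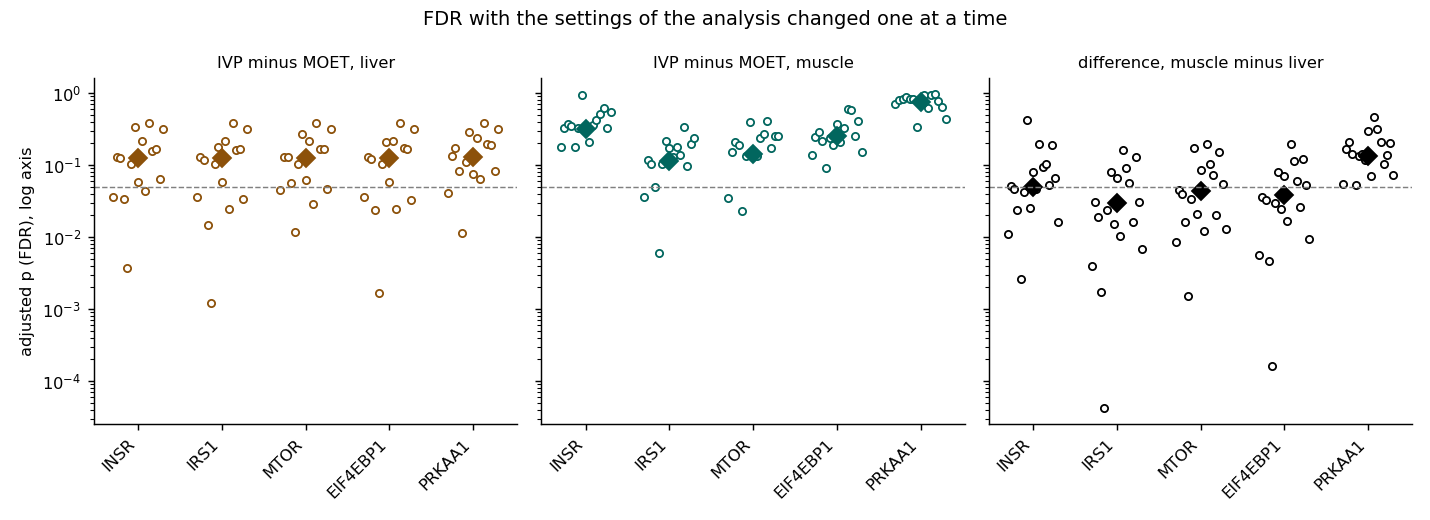
FDR of each of the 5 genes (log axis) in liver, in muscle and for muscle minus liver under the settings tried, with a diamond for the value reported here and a dashed line at 0.05. In liver all 5 values pass in both settings without the age term that keep calf 3213, and 3 or 4 pass in 3 other settings, while in muscle IRS1 and MTOR alone fall under the line, and the muscle minus liver values lie on both sides of the line.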

How the data were processed

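Polyadenylated RNA of 16 samples, liver and muscle of 8 calves, was sequenced in unstranded libraries. According to the methods and the submitters' processing notes, the authors aligned the reads with STAR 2.7 to bosTau9, counted them per Ensembl gene with HTSeq and controlled the effect of age with the sva package. The model behind that step is not given in the sources used here. The deposited values are whole numbers without normalization for depth and, because of the adjustment, estimated counts. The tests for counts were used after rounding, which changed no value. The number of further columns of per-sample values was 0. Gene names came from the study's supplementary tables, which pair 4180 of 27607 IDs with 1 symbol; 1 ID with several symbols was not named. Groups and ages came from the labels and parents from the paper. Coordinates and sequences were not analysed here.

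Genes were kept with filterByExpr (minimum count 10, minimum total 15) in edgeR 4.0.16 (R 4.3.3, limma 3.58.1), scaled by TMM and tested in each organ with age as covariate by the quasi-likelihood test, with Benjamini-Hochberg adjustment (FDR 0.05) over all genes. Muscle minus liver was fitted over all 16 libraries with age within each organ, centred at 103 days. DESeq2 1.42.0 was an alternative, beside other scaling, no filter, no age, full siblings and leaving out calves. The fits were tested on simulated data. Figures were drawn with Python 3.11.15 and matplotlib 3.10.9.

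Both organs came from the same calves, which pairs them by design. The correlation of a calf's deviations from its group means in both organs was -0.091 to 0.178, above 0.1 in 4 of 8 calves.

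The members, lists and tests were chosen with earlier results of these data known. The text names the 5 genes, their direct partners that have a symbol (IGF1R, TSC1, RHEB, RPTOR, PRKAA2, PRKAB1, PRKAB2 and INSRR), in each organ the 3 other listed genes with the lowest p, and the 3 named genes most like each of the 5 in Pearson correlation, among 7059 genes with a mean of at least 5 CPM in both organs (prior count 2). GRB2 was named after its values were seen, and 2 genes covered by the rule are not reported here. Of 41 markers 12 could be named, and none of the adipocyte, bile duct, T and B cell or erythroid lists. The macrophage list had 1 marker, at 174 to 196 CPM in IVP and 154 to 190 CPM in MOET liver and 4.53 to 11.9 and 7.14 to 8.71 CPM in muscle.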

Additional observations from a re-analysis of the deposited data

Results flagged for a closer look

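In 4 of 10 groups of 4 IVP calves (5 genes in 2 organs) 1 calf stood apart from the other 3 by Dixon's criterion. Chance meets it in about 1 of 20 independent groups, but these 10 groups hold the same 4 calves and are not independent. The share over all genes was not computed. Over genes with ample counts, calves 5841 and 3208 deviated most in liver (median absolute log2 deviation 0.368 and 0.236). The calves flagged in liver were calf 3208 for INSR (20.3 CPM) and for PRKAA1 (18.4 CPM), the highest of the IVP calves in both, and calf 5841 for EIF4EBP1 (134.7 CPM). In muscle it was calf 5833 for INSR (13.3 CPM). The IVP minus MOET difference was not the same in muscle and liver, by the edgeR test of the difference itself, for INSR (1.16), IRS1 (1.63), MTOR (1.09) and EIF4EBP1 (-1.43), all on the log2 scale as muscle minus liver. With the calf as replicate block, which takes up that both organs came from the same calves, IRS1 alone of these passed.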

How the results depend on the processing

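The number of genes with an FDR under 0.05 moved far more than the fold changes of the 5 genes. In liver it was 5 with age, 2998 without the age term, 17 without the filter, 1568 by DESeq2 with age, 4657 by DESeq2 without age and 19 among the full siblings, and leaving out a calf gave 1 to 2187. In muscle it was 60, and 1174, 186, 465, 1619 and 21 in the same order, with 6 to 350 when a calf was left out. For muscle minus liver it was 1370, against 4050 without age, 2637 by DESeq2 with age, 4566 by DESeq2 without age, 4 among the full siblings, 713 with the calf as replicate block, 3521 with 1 age term for both organs, and 0 to 2514 when a calf was left out. It was 0 without MOET calf 3218 or 5932.

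In liver 0 of the 5 genes passed in 10 of 15 alternatives. Without age all passed, at -0.74 (INSR), -1.03 (IRS1), -0.80 (MTOR), 1.03 (EIF4EBP1) and -0.36 (PRKAA1), and by DESeq2 without age at -0.73, -1.02, -0.79, 1.05 and -0.34. By DESeq2 with age INSR (-0.73), IRS1 (-1.03) and EIF4EBP1 (0.99) passed. Leaving out a calf gave -0.92 to -0.59 for INSR, -1.23 to -0.86 for IRS1, -0.97 to -0.62 for MTOR, 0.68 to 1.12 for EIF4EBP1 and -0.42 to -0.28 for PRKAA1. Without calf 3213, where the age term rests largely on calf 5841, 4 of them passed, as did 2187 genes in all (15.2%). Without calf 5841 3 did, as did 1219 (8.41%).

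In muscle 0 passed in 12 of 15. IRS1 passed without age (0.64), by DESeq2 with age (0.62) and by DESeq2 without age (0.63), and MTOR without age (0.33) and by DESeq2 without age (0.32). Leaving out a calf gave 0.15 to 0.58 for INSR, 0.44 to 0.87 for IRS1, 0.28 to 0.36 for MTOR, -0.63 to -0.26 for EIF4EBP1 and 0.02 to 0.19 for PRKAA1. TSC1 turned to -0.035 among the full siblings, and IGF1R ranged from -0.15 to 0.033 when a calf was left out.

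For muscle minus liver, INSR was at 1.13 and did not pass with RLE size factors. Among the full siblings INSR (0.53), IRS1 (1.22), MTOR (0.77) and EIF4EBP1 (-1.27) did not pass, and with the replicate block INSR (1.10), MTOR (1.12) and EIF4EBP1 (-1.32) did not. Leaving out a calf gave 0.81 to 1.42 for INSR, 1.42 to 1.82 for IRS1, 0.88 to 1.29 for MTOR, -1.62 to -1.07 for EIF4EBP1 and 0.28 to 0.55 for PRKAA1. In the comparison of organs IRS1 was at 0.0082 with the replicate block and at -0.19 to 0.076 when a calf was left out, and MTOR at -0.25 to 0.0050. INSR, EIF4EBP1 and PRKAA1 stayed at -0.96 to -0.69, 2.12 to 2.44 and 0.70 to 0.85. The causes were not tested.

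No paired analysis was possible because IVP and MOET calves share no replicate numbers within an organ. Adjustment for transcript length was not run, since transcript lengths were not used here. The 95% intervals cover the spread between these calves, which also differ in parents.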
